A study of Mus musculus with 8 samples.

Results

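The nuclear genome encodes most of the subunits of respiratory complexes II to V, and 43 such genes were followed in granulosa cells of the newborn mouse ovary. They were taken by name from a filtered expression table of 11783 genes, leaving out names that mark pseudogenes. They comprise 4 genes of complex II (Sdha to Sdhd), 9 of complex III (Cyc1 and names beginning with Uqcr), 14 of complex IV (names beginning with Cox4 to Cox8) and 16 of complex V (names beginning with Atp5). Granulosa cells are the somatic cells that surround the oocyte, and the series is framed around the first activation of primordial follicles. RNA-seq was done on 4 libraries from C57BL/6 mice at postnatal day 4 (PND4) and 4 from C57BL/6 mice at postnatal day 1 (PND1). The cells came from dissociated ovaries, per the series' design text. No treatment or mutation is named for either age. How many animals stand behind a library, and if each library is from its own animals or litter, is not in the labels. The p-values therefore describe only the spread between these libraries, which may be technical. Values are FPKM, a fragment count scaled for transcript length and for the size of the library, and the read depth itself is unknown.

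Complex II, succinate dehydrogenase, belongs to both the citric acid cycle and the respiratory chain and passes electrons to ubiquinone. Complex III hands them to cytochrome c, complex IV (cytochrome c oxidase) passes them to oxygen, and complex V (ATP synthase) uses the proton gradient built by the chain to make ATP. Complexes III, IV and V each combine nuclear-encoded subunits with subunits encoded in mitochondrial DNA, whereas complex II is wholly nuclear. In the growing follicle granulosa cells pass metabolites to the oocyte through gap junctions.

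Nuclear respiratory genes are known for promoters with sites of the transcription factors NRF1, GABPA (also called NRF2) and YY1, so the RefSeq promoters (GRCm38.p6, 250 bases before to 50 after each start) were searched for 3 sets of letters on both strands. Promoters were matched for 33 of the 43 genes, and the comparison is with those of all 27025 genes in the table, noncoding genes included. The NRF1 letters (GCGCA, then any base, then GCGC) stood in 30.3% of the members' promoters (10 of 33) and 5.19% of all genes' promoters. The GABPA letters CCGGAAG stood in 36.4% (12 of 33) and 9.93%, and the YY1 letters AAGATGGCG in 6.06% (2 of 33) and 1.64%. At least 1 of the 3 sets stood in 57.6% of the members' promoters (19 of 33) and 15.1% of all genes' promoters. The windows of 110 bases before the start are shown for 3 genes described further on: Sdha, with 3 matches to the NRF1 letters, Atp5k, the member with the greatest difference between ages, and Atp5j, which lies back to back with Gabpa itself. Capitals mark the matched letters, and sequences run 5′ to 3′ on the gene's strand. All 3 are on the minus strand, Sdha at chr13:74350241-74350350, Atp5k at chr5:108434400-108434509 and Atp5j at chr16:84834977-84835086. The starts are those of RefSeq and can differ from the gene ends of other annotations.
Sdha: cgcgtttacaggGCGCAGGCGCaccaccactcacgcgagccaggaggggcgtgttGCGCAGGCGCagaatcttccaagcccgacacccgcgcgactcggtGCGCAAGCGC
Atp5k: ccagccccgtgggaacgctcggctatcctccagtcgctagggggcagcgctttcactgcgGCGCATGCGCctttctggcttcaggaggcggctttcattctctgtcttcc
Atp5j: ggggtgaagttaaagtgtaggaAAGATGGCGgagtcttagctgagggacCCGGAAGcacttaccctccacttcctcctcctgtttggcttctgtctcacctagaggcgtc
In Atp5j the first capitals are the YY1 letters and the second the GABPA letters. A match is a description of these letters and no evidence of binding, and a lack of one says only that the letters are not in the window.

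The libraries were checked before the members were compared. FPKM over all listed genes summed to between 443333 and 496462 at PND4 and between 454572 and 505035 at PND1. PND4 replicate 1 and PND1 replicate 1 had the most genes listed at 0, 1097 and 1234, against 222 to 858 in the other 6 libraries. Of 17 granulosa markers 16 were listed, and their summed FPKM lay between 1390 and 1690 at PND4 and between 1400 and 1750 at PND1. Markers of other cells were also present. Oocyte markers (11 of 13 listed) summed to between 17.8 and 216 FPKM at PND4, the highest in replicate 3, and to between 13.4 and 65.0 at PND1. Stroma markers (9 of 9) summed to between 486 and 839 FPKM at PND4 and between 463 and 818 at PND1. Immune markers (4 of 6) summed to between 2.92 and 65.3 FPKM at PND4 and between 8.34 and 23.9 at PND1. Erythroid markers (3 of 6) summed to between 0.268 and 11.4 FPKM at PND4 and between 17.1 and 48.9 at PND1. Surface epithelium markers (5 of 5) summed to between 91.6 and 170 FPKM at PND4 and between 48.2 and 148 at PND1, while 0 of 6 endothelial markers matched a listed gene, so they were not analysed here. No listed marker stood at 0 in all 8 libraries. In the limma test described below, 8 stroma markers were higher at PND4 and 1 lower, with a median log2 difference of 0.22. Of the granulosa markers 6 were higher and 10 lower, of the oocyte markers 5 and 5, and of the erythroid markers 0 and 3. Limma unadjusted p-values under 0.05 were had by 3 stroma, 2 granulosa, 3 oocyte and 3 erythroid markers. Of all tested genes 5.90% had one. The part of other cells in the results was not tested.

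The comparison of PND4 with PND1 asked which transcripts differ over the days in which primordial follicles form and begin to grow. Between PND4 and PND1 none of the nuclear genes of complexes II to V passed the test. Of the 43 genes 41 had at least 1 FPKM in at least 4 libraries and were tested, together with 10756 genes in all, by limma on log2(FPKM + 1). With Benjamini-Hochberg adjustment over all genes, 0 of the 41 members had an adjusted p under 0.05, where 0.00930% of all tested genes (1 of 10756) did. Unadjusted p-values under 0.05 were had by 2 members, Uqcrfs1 and Atp5k, or 4.88% of the 41, where 5.90% of all tested genes had one. Both were higher at PND4, where 4.06% of all tested genes were higher with such a p, and 0 members were lower with one, where 1.84% of all tested genes were. The count of 2 depended on the libraries: it was 1 without PND4 replicate 1, PND4 replicate 2, PND1 replicate 1 or PND1 replicate 4, and 3 without PND4 replicate 3. The members' log2 differences had a median of 0.12, with 32 above 0 and 9 below. The median of all tested genes was 0.078, with 60.3% above 0, or 64.1% among those with a mean of at least 10 FPKM. With median-of-ratios scaling 23 of the 41 members were above 0 and their median was 0.043. That of all tested genes was then 0.0085, with 51.2% above 0 (50.4% with upper-quartile scaling). These shares are also the background for the counts by complex given below. The libraries of the ages did not overlap, with all PND4 values higher, for 2 members, Atp5a1 and Atp5k, where 3.16% of tested genes had such an order, and 0 members had the opposite order, where 1.08% of tested genes did. In RNA from many cells, fewer cells of a type and less RNA per cell cannot be told apart.

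The tested members were measured more tightly than most genes. The 95% interval of a member's log2 difference reached a median of 0.357 to either side, against 0.649 over all tested genes and 0.444 over the 5251 tested genes with a mean of at least 10 FPKM. For 27 of the 41 the interval lay wholly within a 1.5-fold change in either direction (65.9%, against 41.7% of the 5251 genes). For 38 it lay within a 2-fold change (92.7%, against 84.0% of the 5251 genes and 58.2% of all tested genes). Level was not matched beyond the limit of 10 FPKM, and 23 of the 41 lay above the 90th percentile of all tested genes by mean FPKM. The exceptions to the wider bound were Atp5k, Atp5s and Cox4i2, which had low values or a library at 0.

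**Figure D1:**
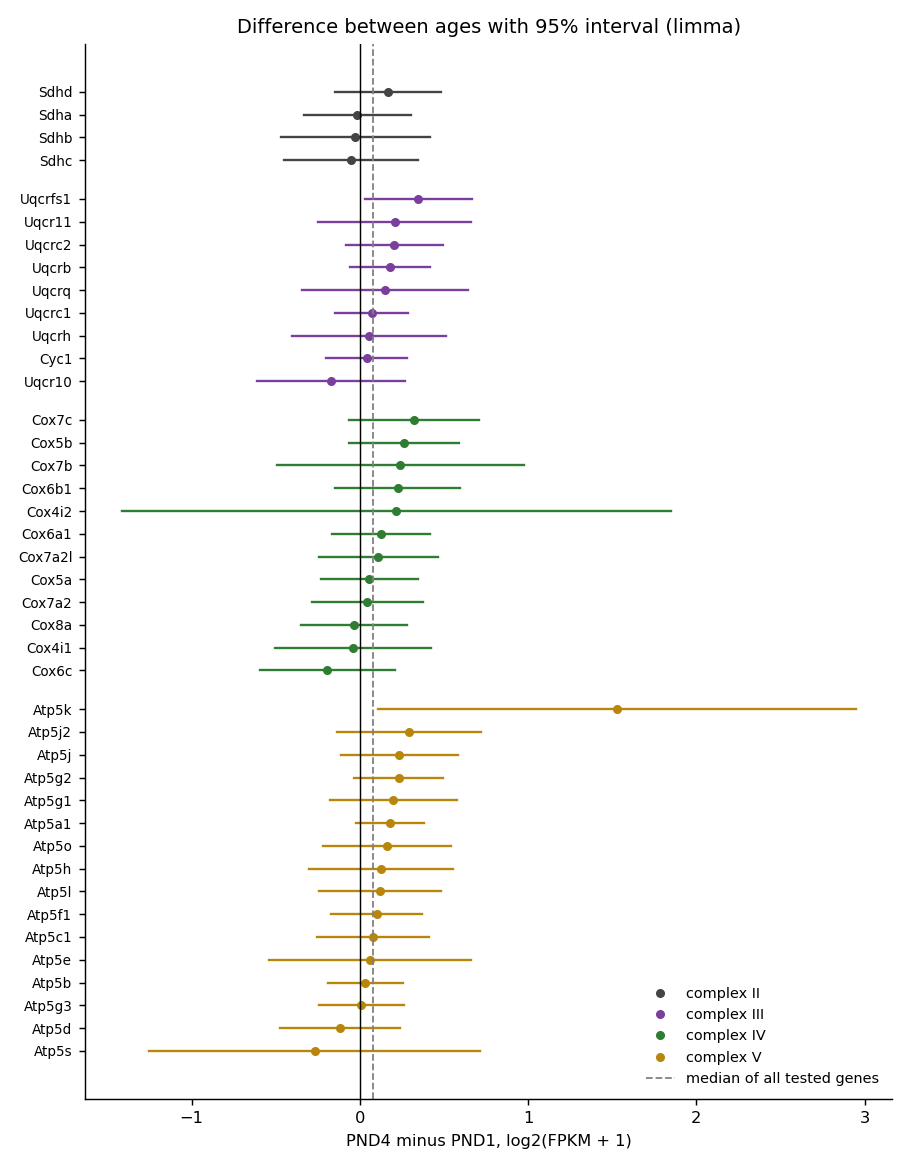
Log2 difference of each tested gene (PND4 minus PND1 on log2(FPKM + 1), points) with its 95% interval from limma (bars), grouped by complex, with 0 as a solid line and the median of all tested genes (0.078) as a dashed line. Intervals of 39 of the 41 genes cross 0, and those of Uqcrfs1 and Atp5k lie above it.

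In complex II, 1 gene had a positive and 3 a negative log2 difference, with a median of -0.021. The sign of this median turned without PND4 replicate 1 or 2 or PND1 replicate 1 or 2 (0.020 to 0.075). Sdha encodes the flavoprotein that oxidises succinate. It had 43.2, 62.3, 62.8 and 60.2 FPKM in PND4 replicates 1 to 4, against 52.4, 62.9, 56.9 and 56.6 FPKM in PND1 replicates 1 to 4, an order kept in all such lists. PND4 replicate 1 was the lowest of the 8, the other values lay close together, and the ages overlapped (log2 difference -0.015, limma adjusted p = 0.987, 95% interval -0.33 to 0.30). Its promoter holds the 3 matches to the NRF1 letters shown above, and a link between such letters and the ages was not tested. Sdhb, the iron-sulphur subunit, had 81.9, 38.3, 49.9 and 59.2 FPKM at PND4, against 56.0, 62.3, 56.6 and 50.7 FPKM at PND1. The PND4 libraries held both the highest and the lowest value, with SDs of 18.5 FPKM at PND4 and 4.73 at PND1 (n = 4), and the log2 difference was -0.027 (limma adjusted p = 0.985).

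The membrane anchors of complex II, Sdhc and Sdhd, bind ubiquinone. Sdhd had the highest mean of the 4 genes, with 66.2, 84.1, 93.8 and 87.0 FPKM at PND4, against 80.7, 60.2, 78.4 and 74.7 FPKM at PND1. Of the PND4 libraries 3 lay above every PND1 library, and replicate 1 lay among them (log2 difference 0.17, limma adjusted p = 0.855). Sdhc had the lowest mean in the complex, with 25.0, 25.6, 33.8 and 32.9 FPKM at PND4, against 39.2, 24.0, 28.5 and 30.9 FPKM at PND1. PND1 held both its highest and its lowest value, and it was below Sdhb in 8 of 8 libraries. Its log2 difference was -0.052 (limma adjusted p = 0.970).

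In complex III, 8 of 9 genes had a positive log2 difference (5 of 9 with median-of-ratios or upper-quartile scaling), with a median of 0.15, and 0 of 9 passed the adjusted test. The median was 0.046 without PND1 replicate 3 and 0.094 without PND4 replicate 3. The core proteins and cytochrome c1 overlapped between the ages. Uqcrc1, the first core protein and the most abundant member of the complex, had 157, 140.4, 145 and 161 FPKM at PND4, against 148, 154, 136 and 138 FPKM at PND1. The ages overlapped, and its within-age coefficient of variation was 6.26% (log2 difference 0.069, limma adjusted p = 0.913). Uqcrc2, the second core protein, had 97.9, 88.3, 104 and 107 FPKM at PND4, against 73.1, 105, 85.0 and 83.9 FPKM at PND1. PND1 replicate 2 was higher than 3 of the PND4 libraries, and the other 3 PND1 libraries were below all of them (log2 difference 0.20, limma adjusted p = 0.812). Cyc1, cytochrome c1, had 74.1, 77.2, 66.6 and 80.3 FPKM at PND4, against 76.5, 69.6, 73.0 and 70.2 FPKM at PND1, and its log2 difference was 0.041 (limma adjusted p = 0.960).

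Uqcrfs1, the Rieske iron-sulphur protein that takes electrons from ubiquinol, had the smallest p of the 41 members. The gene (ENSMUSG00000038462) lies at chr13:30540308-30545362 on the minus strand of GRCm38. It had 77.5, 68.5, 64.1 and 58.3 FPKM at PND4, against 41.9, 60.4, 55.4 and 53.0 FPKM at PND1. Of the PND4 libraries 3 were above all PND1 libraries, and PND4 replicate 4 was below PND1 replicate 2. The log2 difference of 0.35 (limma, unadjusted p = 0.0355 and adjusted p = 0.805) had a 95% interval of 0.028 to 0.67 and did not pass. Without PND1 replicate 1, the lowest library, the difference was 0.24, with a limma p of 0.0926 before adjustment.

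The other 5 genes of complex III encode small supernumerary subunits, and their levels spanned a wide range. Uqcrb had 134, 151, 129 and 154 FPKM at PND4, against 122, 114, 128 and 137 FPKM at PND1, the second smallest p of the complex (log2 difference 0.18, limma adjusted p = 0.807). Uqcrq, at the other end, had a mean of 11.2 ± 2.39 FPKM at PND4 and 9.97 ± 1.71 FPKM at PND1 (SD, n = 4 each). Uqcr10 was the only one of the 9 with a negative log2 difference, -0.17 (limma adjusted p = 0.892), and its highest value, 52.5 FPKM, was in PND1 replicate 3, without which the difference was -0.013. The hinge protein gene Uqcrh stood at 67.7 FPKM in PND4 replicate 3 and between 40.2 and 43.6 FPKM in the other PND4 libraries, against 36.8 to 57.6 FPKM at PND1. Uqcr11 stood between 21.5 and 29.5 FPKM at PND4 and between 14.4 and 27.7 FPKM at PND1.

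**Figure D2:**
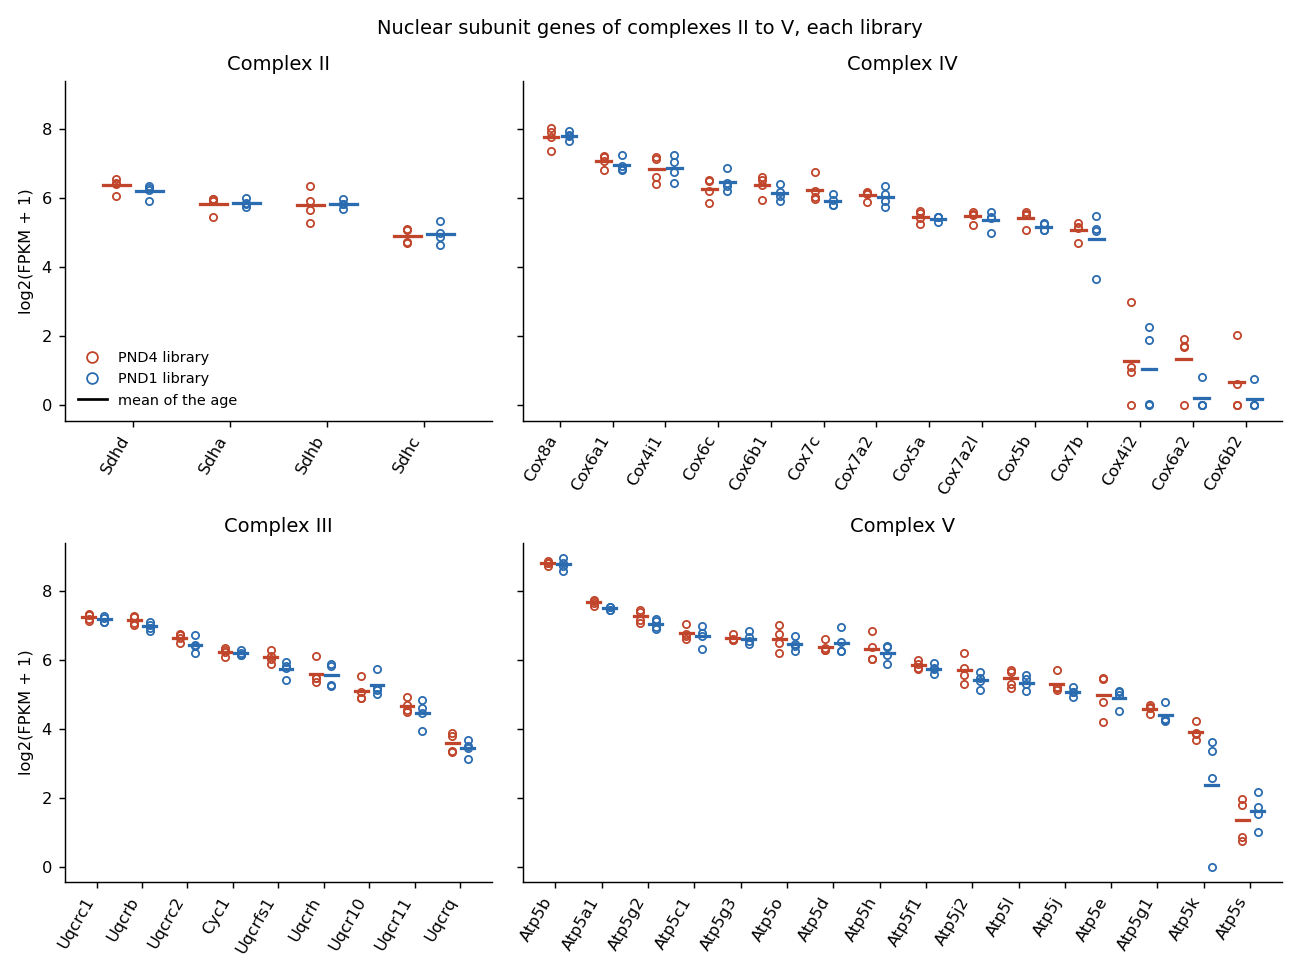
Each library's log2(FPKM + 1) for the 43 genes, by complex and in order of mean level, with PND4 libraries (red circles) left of PND1 libraries (blue circles) and the mean of each age as a bar. The ages overlap for every gene but Atp5a1 and Atp5k, and Cox4i2, Cox6a2, Cox6b2 and Atp5s lie far below the rest.

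In complex IV, 9 of 12 tested genes had a positive log2 difference (7 of 12 with either other scaling), with a median of 0.12, and 0 of 12 passed. Cox8a, a small subunit of the membrane part, was the most abundant, with 263, 218, 165 and 243 FPKM at PND4, against 248, 222, 203 and 227 FPKM at PND1. PND4 replicates 1 and 3 held the highest and lowest values of the 8 (log2 difference -0.035, limma adjusted p = 0.973). Cox4i1, the ubiquitous form of the largest nuclear subunit, had 146, 84.6, 139 and 98.1 FPKM at PND4, against 153, 132, 108 and 86.8 FPKM at PND1. The spread within each age, 30.3 FPKM at PND4 and 28.6 at PND1 (SD, n = 4), was far wider than the gap between the means (log2 difference -0.039, limma adjusted p = 0.983). Cox5a, the other early-assembling subunit, was steadier, with 49.1, 37.0, 46.3 and 42.0 FPKM at PND4, against 42.6, 42.7, 42.7 and 38.8 FPKM at PND1. It had a log2 difference of 0.057 (limma adjusted p = 0.950, 95% interval -0.23 to 0.34).

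The smallest p-values of complex IV were those of Cox7c and Cox5b. Cox7c, a small membrane subunit, had 73.1, 61.9, 65.5 and 108 FPKM at PND4, against 61.6, 55.4, 55.0 and 69.2 FPKM at PND1. PND4 replicate 4 stood above all other libraries, and without it the log2 difference of 0.32 (limma adjusted p = 0.805) was 0.15. Cox5b, the zinc-binding subunit on the matrix side, had 47.6, 45.4, 33.1 and 44.7 FPKM at PND4, against 38.2, 32.9, 32.9 and 37.0 FPKM at PND1. Of the PND4 libraries 3 were above all PND1 libraries (log2 difference 0.26, limma adjusted p = 0.805). Cox6c had the most negative log2 difference of the complex, -0.19 (limma adjusted p = 0.868), with 116 FPKM in PND1 replicate 1 and 57.2 to 92.3 FPKM at PND4. It was -0.061 without that library and -0.052 without PND4 replicate 2, the lowest of the 8. Cox7b had a single low library, 11.6 FPKM in PND1 replicate 1 against 32.4 to 43.7 FPKM in the other PND1 libraries and 25.1 to 37.6 FPKM at PND4. Its log2 difference of 0.24 turned to -0.15 without that library.

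Complex IV has tissue-specific forms of several subunits, and the ubiquitous form made up nearly all of the FPKM of each pair at both ages. Cox4i2, the form of subunit 4 known from lung and low oxygen, was listed at 0, 1.14, 7.0 and 0.959 FPKM at PND4, against 0, 0.0292, 3.85 and 2.70 FPKM at PND1. It took between 0% and 4.78% of the summed FPKM of the COX4 pair at PND4 and between 0% and 3.44% at PND1 (log2 difference 0.22, limma adjusted p = 0.970). The share was highest in PND4 replicate 3, the library with the highest sums of both oocyte (216 FPKM) and surface epithelium markers (170 FPKM). A link of Cox4i2 to other cells was not tested. Cox6a2, the form of heart and skeletal muscle, was listed at 0, 2.30, 2.24 and 2.79 FPKM at PND4, against 0, 0, 0 and 0.756 FPKM at PND1. With fewer than 4 libraries at 1 FPKM it was untested, and without the filter the difference came to 1.13 on the log2 scale (limma adjusted p = 0.836). Of 8 markers of smooth and striated muscle, taken as a single list, 4 were listed (Actc1, Cnn1, Des and Tagln). Myh11, Ckm, Myh3 and Tnnt2 were not. The sums lay between 355 and 621 FPKM at PND4 and between 438 and 822 FPKM at PND1. They do not separate the kinds of muscle, and the source of Cox6a2 was not tested. Cox6b2, the testis form of subunit 6B, was also untested, listed at 0 in 5 of 8 libraries and at most at 3.10 FPKM, in PND4 replicate 4. An exact 0 in such a table can be a failed estimate.

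The ubiquitous partners Cox6a1, Cox6b1 and Cox7a2 were abundant. Cox6a1 had 113, 147, 149.8 and 135 FPKM at PND4, against 113, 114, 122 and 151 FPKM at PND1, and the highest of the 8 was PND1 replicate 4 (log2 difference 0.12, limma adjusted p = 0.878). Cox6b1 had 91.1, 98.3, 60.5 and 83.2 FPKM at PND4, against 85.2, 65.5, 59.2 and 72.3 FPKM at PND1, with replicate 3 the lowest at both ages (log2 difference 0.23, limma adjusted p = 0.836). Cox7a2 and its relative Cox7a2l were both expressed. The long form of the COX7A2L protein is known to join complexes III and IV in supercomplexes, and C57BL/6 mice are known to carry a short form. Cox7a2 had 58.0, 69.6, 69.4 and 71.5 FPKM at PND4, against 69.6, 81.3, 52.7 and 59.1 FPKM at PND1, with both the highest and the lowest value at PND1. Cox7a2l made up 38.8%, 39.9%, 39.3% and 40.1% of the summed FPKM of the pair at PND4, against 37.9%, 27.4%, 47.3% and 42.3% at PND1. The share was thus much closer between the PND4 libraries, with means of 39.5% ± 0.593 at PND4 and 38.7% ± 8.47 at PND1 (SD, n = 4 each).

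In complex V, 14 of 16 genes had a positive log2 difference (10 of 16 with either other scaling), with a median of 0.12, and 0 of 16 passed. The catalytic F1 head holds 3 alpha and 3 beta subunits around a central stalk. Atp5b, the beta subunit that carries the catalytic sites, was the most abundant of all 43 genes, with 446, 446, 419.9 and 472 FPKM at PND4, against 496, 449, 385 and 420.2 FPKM at PND1. PND1 held both the highest and the lowest value (log2 difference 0.032, limma adjusted p = 0.968, 95% interval -0.19 to 0.25). Atp5a1, the alpha subunit, had 189.6, 200.2, 210.4 and 214 FPKM at PND4, against 185, 175, 174 and 184 FPKM at PND1. All 4 PND4 libraries were above all 4 PND1 libraries, and the coefficient of variation within an age, 4.5%, was the lowest of the tested members. The difference of 0.18 on the log2 scale had a 95% interval of -0.021 to 0.38 (limma adjusted p = 0.805), and with median-of-ratios scaling it was 0.10 (limma adjusted p = 0.915). Haus1 shares 129 exonic bases with Atp5a1 on the opposite strand.

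As deposited, the central stalk genes showed no common direction. Atp5c1, the gamma subunit, had 102, 97.1, 129.7 and 107 FPKM at PND4, against 126, 102, 109 and 79.5 FPKM at PND1, with overlapping ages (log2 difference 0.077, limma adjusted p = 0.937). Atp5d, the delta subunit, stood between 77.1 and 95.6 FPKM at PND4 and between 74.9 and 123 FPKM at PND1 (log2 difference -0.12, limma adjusted p = 0.910). The epsilon subunit gene Atp5e stood between 17.3 and 43.3 FPKM at PND4 and between 21.7 and 33.0 FPKM at PND1 (log2 difference 0.060, limma adjusted p = 0.976). With median-of-ratios scaling the log2 differences of Atp5c1, Atp5d and Atp5e were all negative, at -0.00085, -0.19 and -0.016. They were also negative with upper-quartile scaling, at -0.0072, -0.20 and -0.022.

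The ring of c subunits that turns with the proton flow is encoded by 3 genes, Atp5g1, Atp5g2 and Atp5g3, known to give the same mature protein from precursors with different targeting peptides. Atp5g2 had 174, 141, 168 and 134 FPKM at PND4, against 138, 119, 123 and 144 FPKM at PND1. Of the PND4 libraries 2 were above all PND1 libraries (log2 difference 0.23, limma adjusted p = 0.805). Atp5g3 had 96.1, 94.6, 107 and 94.7 FPKM at PND4, against 113, 92.0, 100.4 and 86.3 FPKM at PND1, and a log2 difference of 0.0082 (limma adjusted p = 0.990). Atp5g1 had 23.7, 20.3, 24.7 and 23.5 FPKM at PND4, against 26.2, 17.8, 18.6 and 18.2 FPKM at PND1, with PND1 replicate 1 above all others (log2 difference 0.20, limma adjusted p = 0.855). The order Atp5g2, Atp5g3, Atp5g1 held in 8 of 8 libraries. Atp5g2 made up 55.9% ± 2.54 of the summed FPKM of the 3 genes at PND4 and 52.6% ± 3.65 at PND1, Atp5g3 35.7% ± 2.16 and 39.3% ± 3.08, and Atp5g1 8.40% ± 0.629 and 8.06% ± 0.954 (SD, n = 4 each, PND4 before PND1). The shares of all 3 genes overlapped between the ages.

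**Figure D3:**
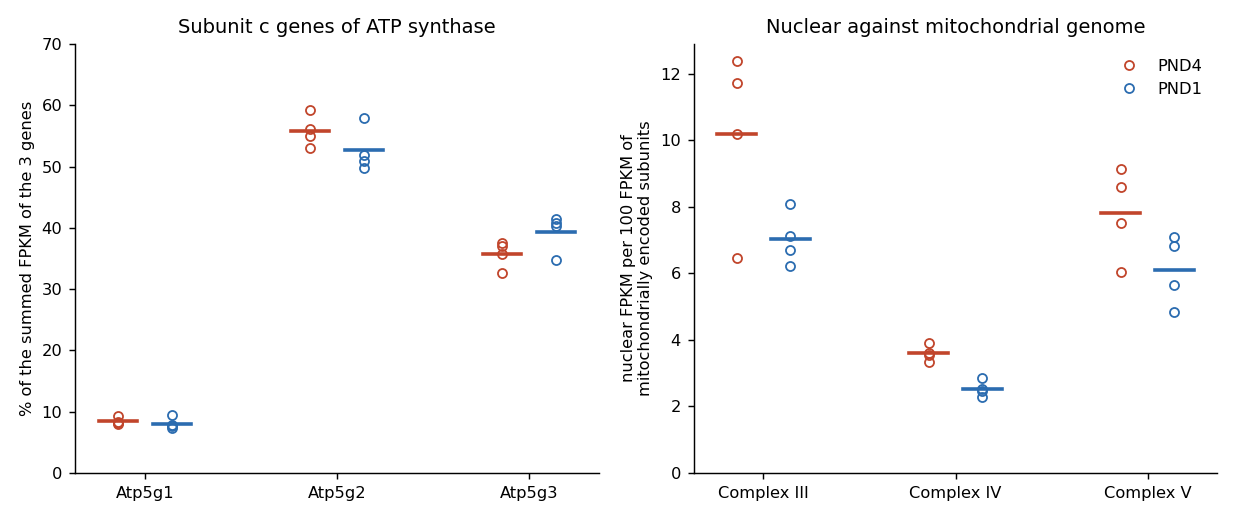
Left, share of each subunit c gene in the summed FPKM of the 3 genes (percent), and right, summed FPKM of nuclear members per 100 FPKM of the mitochondrially encoded subunits of the same complex, each library as a circle (PND4 red, left; PND1 blue, right) with the mean of the age as a bar. Atp5g2 leads in all 8 libraries, and the ages do not overlap for complex IV on the right (between 3.33 and 3.91 at PND4 and 2.28 to 2.85 at PND1).

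The peripheral stalk, which holds the head still, and the membrane subunits that shape ATP synthase dimers made up the rest of complex V. The stalk genes Atp5f1, Atp5h, Atp5j and Atp5o had log2 differences between 0.10 and 0.23, and none passed. Atp5j, coupling factor 6, had 50.9, 35.1, 34.1 and 35.9 FPKM at PND4, against 36.0, 29.5, 32.5 and 32.6 FPKM at PND1. PND4 replicate 1 stood well above the others, and without it the log2 difference of 0.23 (limma adjusted p = 0.83) was 0.10. Atp5j and Gabpa share 397 exonic bases on opposite strands. Gabpa, a DNA-binding regulator of respiratory genes, had 7.67, 22.2, 17.6 and 22.4 FPKM at PND4, against 10.5, 21.5, 20.3 and 19.0 FPKM at PND1 (log2 difference -0.082, limma adjusted p = 0.973). Gabpa was lowest in the 2 libraries numbered 1, in which Atp5j was highest of its age. These libraries also had the most genes listed at 0 (1097 at PND4 and 1234 at PND1). A link between Gabpa and Atp5j was not tested. Atp5o, the oligomycin sensitivity protein, stood between 72.0 and 129 FPKM at PND4 and between 76.1 and 102 FPKM at PND1.

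Atp5k, subunit e, one of the subunits at the dimer interface, had the greatest log2 difference of the 41 members. The gene (ENSMUSG00000050856) lies at chr5:108433244-108434448 on the minus strand of GRCm38. It had 17.5, 13.8, 13.4 and 11.9 FPKM at PND4, against 0, 4.93, 11.3 and 9.15 FPKM at PND1. All 4 PND4 libraries were above all 4 PND1 libraries, by a small gap between 11.9 and 11.3 FPKM. The difference of 1.53 on the log2 scale had a 95% interval of 0.11 to 2.95 (limma unadjusted p = 0.0371, adjusted p = 0.805), and it was 0.73 without PND1 replicate 1 (limma adjusted p = 0.859). With a pseudocount of 0.1 in place of 1 it was 2.39, and with one of 5 it was 0.88. PND1 replicate 1 had the most genes listed at 0 of the 8 libraries. Atp5l and Atp5j2, subunits g and f of the same membrane region, did not share the size of that difference. Atp5l stood between 35.3 and 51.1 FPKM at PND4 and between 32.9 and 46.0 FPKM at PND1 (log2 difference 0.12, limma adjusted p = 0.909). Atp5j2 had 72.6, 53.7, 38.2 and 46.0 FPKM at PND4, against 43.8, 48.9, 34.1 and 41.1 FPKM at PND1 (log2 difference 0.29, limma adjusted p = 0.825). Atp5s, an accessory protein named for the synthase, was barely listed, from 0.684 to 2.91 FPKM at PND4 and from 1.00 to 3.49 FPKM at PND1.

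Levels of the members, compared per length as FPKM, differed far more between genes than between ages. Means over the 8 libraries ran from 0.541 FPKM for Cox6b2 to 442 FPKM for Atp5b, with a median of 57.1 over the 43 genes. Of the 41 tested members 23 lay above the 90th percentile of all tested genes by mean FPKM. By complex the median level was 57.0 FPKM for complex II, 59.9 for complex III, 54.5 for complex IV and 66.1 for complex V. Neighbours in the order of levels often could not be separated. In complex V 6 of 15 neighbouring pairs kept their order in all 8 libraries, in complex IV 4 of 13, in complex III 3 of 8 and in complex II 1 of 3. Across the 43 genes the level bore little relation to the length of the main annotated transcript (Spearman rho 0.135, given as a description, the points sharing the same libraries). The 10 members with the NRF1 letters in their promoter had a median level of 95.6 FPKM and a median log2 difference of 0.12, against 45.0 FPKM and 0.10 for the 22 tested members whose promoter lacked them. For the GABPA letters the order of levels was the other way round, with a median of 52.3 FPKM and a log2 difference of 0.12 for the 12 members with them, against 58.5 FPKM and 0.088 for the 20 without.

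**Figure D4:**
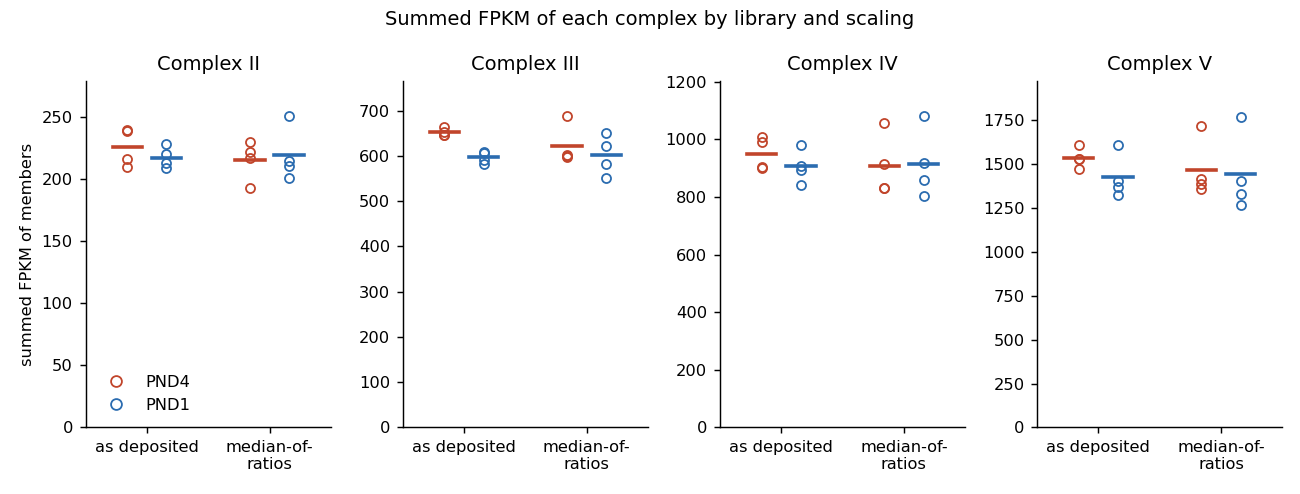
Summed FPKM of the members of each complex in each library, as deposited and after median-of-ratios scaling, with PND4 (red) left of PND1 (blue) and the mean of each age as a bar. As deposited the ages do not overlap for complex III (645.7 to 663.5 at PND4 and 583.3 to 609.3 at PND1), and after scaling they overlap for all 4 complexes.

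Summed over its 9 genes, complex III had 646.4, 653.3, 645.7 and 663.5 FPKM at PND4, against 591.3, 605.5, 609.3 and 583.3 FPKM at PND1. The ages did not overlap and the libraries of each age lay close together, 652 ± 8.29 FPKM at PND4 and 597 ± 12.1 FPKM at PND1 (SD, n = 4 each). With median-of-ratios scaling the sums did overlap, from 597 to 689 at PND4 and from 552 to 650.5 at PND1. The sums of complexes II, IV and V overlapped between ages under both scalings. Summed over all 43 genes the ages overlapped too, from 3242 to 3464 FPKM at PND4 and from 2996 to 3409 FPKM at PND1. After median-of-ratios scaling these sums ran from 2983 to 3693 at PND4 and from 2864 to 3750 at PND1. As a share of all listed FPKM the 43 genes took 0.698% to 0.748% at PND4 and 0.624% to 0.675% at PND1, without overlap. The genes of mitochondrial DNA took 22.4% to 29.4% of all listed FPKM at PND4 and 26.6% to 30.6% at PND1. Of the FPKM outside those genes the members took 0.954% to 0.989% at PND4 and 0.897% to 0.949% at PND1, a narrower gap. All tested genes had a median log2 difference of 0.078 as deposited. No background from other gene sets was made for these sums and shares, so how common such an order is remains unknown. No test was made of such sums, since the genes were chosen with results of these data known.

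The mitochondrially encoded partners in complexes III to V all had negative log2 differences, 6 of 6 under all 3 scalings, and 0 of 6 passed over all genes. Their median was -0.40 as deposited, -0.475 with median-of-ratios scaling and -0.482 with upper-quartile scaling. Those of complex IV, mt-Co1, mt-Co2 and mt-Co3, had limma unadjusted p-values under 0.05 (3 of 6), at log2 differences of -0.44, -0.42 and -0.48 (limma adjusted p = 0.740 each). Of all tested genes 5.90% had such a p, and 1.84% had one and were lower at PND4. The 6 partners all lie in mitochondrial DNA and may vary together, so their counts may not be those of independent genes. For mt-Co3 all PND4 libraries were below all PND1 libraries, an order held by 1.08% of all tested genes. In complex IV the 3 mitochondrially encoded subunits summed to 29750, 25430, 24880 and 25770 FPKM at PND4, against 38800, 36340, 29500 and 39910 FPKM at PND1. PND4 replicate 1 lay just above PND1 replicate 3, and the other PND4 libraries were below all PND1 libraries. Nuclear complex IV genes then came to 3.33, 3.55, 3.61 and 3.91 FPKM per 100 FPKM of these at PND4, against 2.53, 2.46, 2.85 and 2.28 at PND1. The ratio was higher in every PND4 library than in any PND1 library, whereas in complexes III and V the ratios overlapped, with PND4 replicate 1 low in both.

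Of the assembly factors of complexes II to V, the inhibitor of complex V included, none passed the test. The 3 tested for complex II had a median log2 difference of -0.0056 (1 higher and 2 lower, or 3 lower with either other scaling). For complex III 6 were tested, with a median of 0.35 (4 higher and 2 lower under all 3 scalings). For complex IV 21 were tested, with a median of 0.028 (11 higher and 10 lower, or 10 and 11 with either other scaling, where the median was below 0). For complex V 6 were tested, with a median of -0.14 (3 higher and 3 lower, or 2 and 4 with either other scaling). That list also holds Usmg5, a subunit rather than an assembly factor, and the other 5 genes had a median of 0.043 (3 higher and 2 lower, or 2 and 3 with a median below 0 under either other scaling), a split made after the values were seen. The smallest p among them was that of Sco1, which delivers copper to complex IV, with 3.94, 5.65, 4.53 and 5.17 FPKM at PND4, against 0.780, 1.32, 2.40 and 3.18 FPKM at PND1. All PND4 libraries were above all PND1 libraries (log2 difference 1.06, limma adjusted p = 0.740), an order held by 3.16% of all tested genes. Coa6, also of complex IV, had the opposite order, held by 1.08% of all tested genes, and averaged 8.33 ± 0.949 FPKM at PND4 and 10.9 ± 1.74 FPKM at PND1 (SD, n = 4 each; log2 difference -0.35, limma adjusted p = 0.807). Coa3, another complex IV factor, averaged 31.2 ± 4.23 FPKM at PND4 and 44.0 ± 12.4 FPKM at PND1 (SD, n = 4 each; log2 difference -0.45, limma adjusted p = 0.805). Hccs, which attaches heme to cytochromes c and c1, averaged 13.1 ± 5.25 FPKM at PND4 and 7.23 ± 6.22 FPKM at PND1 (log2 difference 0.97, limma adjusted p = 0.805). Usmg5, whose name the gene rule did not take, averaged 101 ± 21.7 FPKM at PND4 and 126 ± 19.3 FPKM at PND1 (log2 difference -0.33, limma adjusted p = 0.805). Cycs, cytochrome c itself, averaged 54.3 ± 3.21 FPKM at PND4 and 48.9 ± 5.62 FPKM at PND1 (log2 difference 0.15, limma adjusted p = 0.852). Of 11 tested regulators of respiratory genes 8 were higher and 3 lower (7 and 4 with either other scaling), with a median of 0.29, and 0 passed. Nrf1 averaged 4.29 ± 1.03 FPKM at PND4 and 4.31 ± 1.06 FPKM at PND1 (SD, n = 4 each; log2 difference -0.0015, limma adjusted p = 0.999).

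Some members can share reads with other genes. On GRCm38 (GENCODE M21) the main transcript of 14 of the 43 matched another gene at 95% identity or more over at least 200 bases, and for 8 of them such a copy was listed in the table. The copies listed for Atp5g2, Gm10175 and Gm10231, had mean values of 51.2 and 18.7 FPKM at PND4 and 45.9 and 17.1 FPKM at PND1, and Gm11273, the copy of Cox5b, 22.1 FPKM at PND4 and 21.6 FPKM at PND1. Gm10221, a copy of Atp5l, averaged 25.7 FPKM at PND4 and 31.0 FPKM at PND1, where Atp5l itself averaged 43.6 FPKM at PND4 and 39.9 FPKM at PND1. Atp5k has a copy of its own, not analysed here. Exonic bases are shared with a gene on the opposite strand by 12 members. Their values are uncertain too, since no source used here says if reads were assigned by strand. In the authors' deposited table, 3 members had p under 0.05 (Atp5a1, Atp5j and Cox6a2), where 6.55% of its 11783 genes did, and the smallest q of a member was 0.743.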

How the data were processed

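RNA was extracted from isolated granulosa cells with a kit for small samples, per the labels' protocols. The submitters' processing notes name Trim Galore, HISAT2 and the GRCm38 build. The authors deposited FPKM values, per the file headers. No source used here names the program, annotation, strand setting or gene filter behind them. In a second table the authors deposited, for each gene, a fold (the values show it to be a ratio with PND1 on top) with its log2, and the p-value and q-value of a test that is not named. Members and lists were chosen with earlier results of these data known. Low FPKM of 2467 single-transcript genes were searched for whole multiples of 1 read. At the best of many trial read sizes, between 29.9% and 42.1% of values lay within 0.1 of one. By chance 20% would at a fixed size, and the best of many sizes can lie higher by chance alone. Read counts could thus not be rebuilt.

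The comparison of ages used limma (version 3.58.1, R 4.3.3) on log2(FPKM + 1), a scale that understates changes of low genes, with a mean-dependent prior variance, no block and Benjamini-Hochberg adjustment at 0.05, over 10756 genes that reached 1 FPKM in 4 or more libraries. On simulated data for these genes, tested in 10 simulations of 200 changed genes of above-median level, 16.7% of genes changed 1.5-fold, 56.1% of those changed 2-fold and 92.9% of those changed 4-fold were recovered. Values per library are given for each complex's most abundant gene, its 2 smallest p, the core subunits and the paralogues (Cox7a2l as a share, Cox6b2 by range); the other genes by range, and a few by value where a library stood apart, chosen after their values were seen. Copies were found with blastn 2.17.0. Alternatives were scaling (median-of-ratios, upper-quartile), the filter, the pseudocount, the replicate block, a constant prior variance and leaving out each library. Figures used matplotlib 3.10.9.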

Additional observations from a re-analysis of the deposited data

Results flagged for a closer look

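In each group of 4 libraries the highest and lowest value were compared with the rest, and 11 of 94 groups held a library set apart by a gap above Dixon's critical share of the range. Chance flags about 5% of groups of normally spread values, and no cause was tested. Where all other libraries of a group stand at 0, as for Cox6a2 and Cox6b2 at PND1, any value above 0 is flagged. The flags of Cox4i2 and Cox6b2 at PND4 also rest on values near 0. The count of flags can thus not be set directly against 5%. At PND4, replicate 1 was low for Sdha (43.2 FPKM, the others 60.2 to 62.8) and for Cox7a2 (58.0 FPKM, the others 69.4 to 71.5) and high for Atp5j (50.9 FPKM, the others 34.1 to 35.9). PND4 replicate 3 was high for Uqcrh (67.7 FPKM, the others 40.2 to 43.6), for Cox4i2 (7.0 FPKM, the others 0 to 1.14) and for Atp5g3 (107 FPKM, the others 94.6 to 96.1). This library also had the highest oocyte and surface epithelium marker sums, 216 and 170 FPKM. PND4 replicate 4 was high for Cox6b2 (3.10 FPKM, the others 0 to 0.529). At PND1, replicate 4 was low for Cox5a (38.8 FPKM, the others 42.6 to 42.7), and was the only PND1 library with a value above 0 for Cox6a2 (0.756 FPKM) and for Cox6b2 (0.696 FPKM). This library had the fewest genes listed at 0, 222. PND1 replicate 1 was high for Atp5g1 (26.2 FPKM, the others 17.8 to 18.6).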

How the results depend on the processing

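Over 16 alternatives 0 members passed the adjusted test, and the smallest adjusted p of a member was 0.716. The count of all genes called was 1, and between 0 and 1 with a library left out. Members with an unadjusted p under 0.05 numbered 2, but 1 with median-of-ratios scaling, upper-quartile scaling or a pseudocount of 0.1, 0 with a constant prior variance, and 1 to 3 with a library left out. The median over all members was 0.043 with median-of-ratios and 0.037 with upper-quartile scaling. With upper-quartile scaling it was 0.071 for complex III and 0.033 for complex IV, and with a library left out that of complex III ran from 0.046 (without PND1 replicate 3) to 0.20. Members above 0 numbered 28 to 34 with a library left out, where 54.1% to 68.2% of all tested genes were above 0. The labels do not say if shared replicate numbers pair the libraries. Deviations of same-numbered libraries correlated at -0.0088 to 0.12, and those of other pairs at -0.14 to 0.11. Such weak correlations cannot decide if a number stands for a shared litter or preparation. With the replicate block 2 members had an unadjusted p under 0.05, Atp5k as before and Cox7c (p = 0.0407 by limma) in place of Uqcrfs1 (p = 0.0614 by limma), and 1 of 4 PND4 libraries correlated best with its own number. The sign of the log2 difference held under all alternatives for 22 of 41 members and turned in 52 of 650 refits. With median-of-ratios and upper-quartile scaling it was -0.037 and -0.043 for Cyc1, -0.0086 and -0.015 for Uqcrc1, -0.023 and -0.029 for Uqcrh, -0.020 and -0.026 for Cox5a, -0.033 and -0.040 for Cox7a2, -0.047 and -0.053 for Atp5b, -0.00085 and -0.0072 for Atp5c1, -0.016 and -0.022 for Atp5e, and -0.069 and -0.076 for Atp5g3. With a library left out it ran from -0.065 to 0.11 for Sdha, -0.21 to 0.15 for Sdhb, -0.16 to 0.070 for Sdhc, -0.11 to 0.16 for Uqcrh, -0.18 to 0.10 for Cox4i1, -0.14 to 0.64 for Cox4i2, -0.0019 to 0.13 for Cox5a, -0.053 to 0.15 for Cox7a2, -0.020 to 0.19 for Cox7a2l, -0.15 to 0.46 for Cox7b, -0.12 to 0.099 for Cox8a, -0.027 to 0.094 for Atp5b, -0.045 to 0.17 for Atp5c1, -0.20 to 0.034 for Atp5d, -0.11 to 0.32 for Atp5e, -0.049 to 0.078 for Atp5g3 and -0.049 to 0.22 for Atp5h. The cause was not tested. Cox4i2 missed the filter without PND4 replicate 2 or 3 or without PND1 replicate 3 or 4. Its range leaves out those refits, among them the one without PND4 replicate 3, its highest library. Since depth is unknown, counting error could not be separated from the spread between libraries.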
